A study of Mus musculus with 24 samples.

Results

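Integrins are cell surface adhesion receptors made of 1 alpha and 1 beta subunit, and 10 subunit genes of glia and leukocytes were followed here in mouse corpus callosum: Itgam, Itgal, Itgb2, Itga4, Itgav, Itgb3, Itgb5, Itgb8, Itga5 and Itga6. They were chosen by name from the 54446 genes of the deposited expression table, and all 10 were found. The beta 2 integrins, in which Itgb2 pairs with Itgam, Itgal or Itgax, are restricted to leukocytes and in brain tissue are best known on microglia, where the receptor of Itgam and Itgb2 (CR3, or Mac-1) binds complement-coated material such as myelin debris. Itgav pairs with several beta subunits, and with Itgb8 or Itgb5 it binds the latent form of the cytokine TGF-beta. Itga4, Itga5 and Itga6 pair mainly with Itgb1 and bind, in turn, the endothelial ligand VCAM-1 and fibronectin, fibronectin, and laminin.

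The tissue was the corpus callosum, the white matter tract between the hemispheres, and polyadenylated RNA of 24 libraries was sequenced. Naive mice given vehicle gave 4 libraries, naive mice given an inhibitor of Bruton's tyrosine kinase (BTKi) gave 4, mice of the cuprizone model given vehicle gave 8, and mice of the cuprizone model given BTKi gave 8. Cuprizone is a copper chelator that kills oligodendrocytes and so strips myelin, and per the series text the inhibitor came after disease had been induced. The sources used here do not give strain, sex, age, compound, dose or durations. Nothing in the labels ties each library to an animal of its own, so a p-value here measures only how these samples vary, and that variation may be technical.

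Expression was deposited as FPKM, that is fragments normalised to gene length and to library depth, so levels of different genes can be compared per length. Tests were run with limma on log2(FPKM + 0.5) over 15216 genes whose mean FPKM was at least 0.5, and a gene is called where its Benjamini-Hochberg adjusted p is under 0.05. The scale understates changes of low genes. The spacing of low values implied about 26500000 to 31000000 fragments a library. The labelled tissue was checked against marker lists. Of 10 oligodendrocyte markers 10 were lower in cuprizone than in naive libraries under vehicle and also under BTKi. The myelin gene Mbp read 1757 to 2522 FPKM in naive vehicle and 612 to 965 FPKM in cuprizone vehicle. The 6 neuron markers summed to 1669 to 1963 FPKM in naive vehicle and 1754 to 2016 FPKM in cuprizone vehicle. They summed to 1728 to 1952 FPKM in naive BTKi and 1650 to 1865 FPKM in cuprizone BTKi. In both comparisons of cuprizone with naive tissue 0 of 6 were called. Neuronal genes were thus high in all groups, and the marker lists do not show that the libraries held the tract alone. Markers of choroid plexus, a tissue beside the tract, summed to 1160 to 1841 FPKM in naive vehicle and 30.5 to 1529 FPKM in cuprizone vehicle, and the libraries cuprizone vehicle 1, 4 and 7 stood apart at the low end. Results of cuprizone vehicle are therefore also given without these 3. Of 8 striatal neuron markers, 8 were lower in cuprizone vehicle than in naive vehicle and 0 were called under BTKi. They summed to 231 to 672 FPKM in naive vehicle, highest in naive vehicle 2, and to 129 to 238 FPKM in cuprizone vehicle. The calls of Adora2a, Drd2, Rgs9, Penk and Tac1 ended without naive vehicle 2, and without cuprizone vehicle 1, 4 and 7 the count was 4 lower.

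Promoter sequences show what lies upstream of members that moved and of one that did not. RefSeq promoter entries (GRCm38.p6) were found for 6 of the 10 members: Itga4, Itga5, Itgam, Itgav, Itgb5 and Itgb8. The 250 bases upstream of the start are printed for Itgam (chr7:128062390-128062639, plus strand) and Itgb5 (chr16:33829415-33829664, plus strand), which were higher in cuprizone tissue, and for Itgav (chr2:83724147-83724396, plus strand), which was not called. Capitals mark GAGGAA, a core of the motif of the myeloid factor PU.1, and GGGCGG, the GC box, with TTCCTC and CCGCCC being the same motifs on the other strand.
Itgam: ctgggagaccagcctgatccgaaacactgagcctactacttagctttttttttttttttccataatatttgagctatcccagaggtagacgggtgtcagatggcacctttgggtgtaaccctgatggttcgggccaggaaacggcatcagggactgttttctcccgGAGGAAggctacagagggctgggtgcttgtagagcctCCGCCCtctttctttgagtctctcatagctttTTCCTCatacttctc
Itgb5: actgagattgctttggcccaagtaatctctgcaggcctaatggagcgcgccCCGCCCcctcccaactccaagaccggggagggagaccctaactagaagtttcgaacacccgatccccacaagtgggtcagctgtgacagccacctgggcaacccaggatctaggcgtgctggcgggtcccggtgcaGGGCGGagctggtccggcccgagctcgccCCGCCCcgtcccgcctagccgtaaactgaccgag
Itgav: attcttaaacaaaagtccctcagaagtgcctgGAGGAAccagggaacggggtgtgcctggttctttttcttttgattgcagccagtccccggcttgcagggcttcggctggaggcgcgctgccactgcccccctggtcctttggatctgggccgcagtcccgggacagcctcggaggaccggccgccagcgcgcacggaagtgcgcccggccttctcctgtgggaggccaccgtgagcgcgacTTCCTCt
Both strands were searched and the motifs do not overlap each other. The stretch of Itgb8 (chr12:119238277-119238526, minus strand) is upstream of its RefSeq start only. It lies within the gene in the GENCODE annotation used for coordinates below (119158022 to 119238802). GAGGAA occurred 2 times upstream of Itgam, 2 times upstream of Itgav, 1 time upstream of Itga5 and 0 times upstream of Itgb5, Itga4 and Itgb8, and 23.3% of 32851 promoters of the same length hold it. GGGCGG occurred 3 times upstream of Itgb5, 2 times upstream of Itga5, 1 time upstream of Itgam and of Itga4, and 0 times upstream of Itgav and Itgb8, and 32.7% of those promoters hold it. The myeloid subunit gene and the broadly used Itgav thus both hold the PU.1 core letters, as do many promoters, and a match of letters is a description and not a binding site.

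In naive vehicle libraries the members spanned a wide range of levels per length. By median FPKM the order was Itgb5 (13.8), Itgav (13.6), Itgb8 (9.04), Itga6 (7.79), Itgam (4.57), Itgb2 (1.78), Itga5 (1.38), Itga4 (1.33), Itgb3 (0.583) and Itgal (0.357). The libraries of Itgb5 and Itgav overlapped, as did those of Itgb2 and Itga5, of Itga5 and Itga4, and of Itgb3 and Itgal. For the last of these pairs the overlap was slight, and Itgb3 was above Itgal in each of the 4 libraries. In cuprizone vehicle Itgb5 had a median of 21.3 FPKM, and its lowest library (17.4) lay above the highest of Itgav (13.6), so the 2 most abundant members no longer overlapped. Itga6 (10.6 FPKM) then stood above Itgb8 (9.62 FPKM), with libraries that overlapped.

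**Figure D1:**
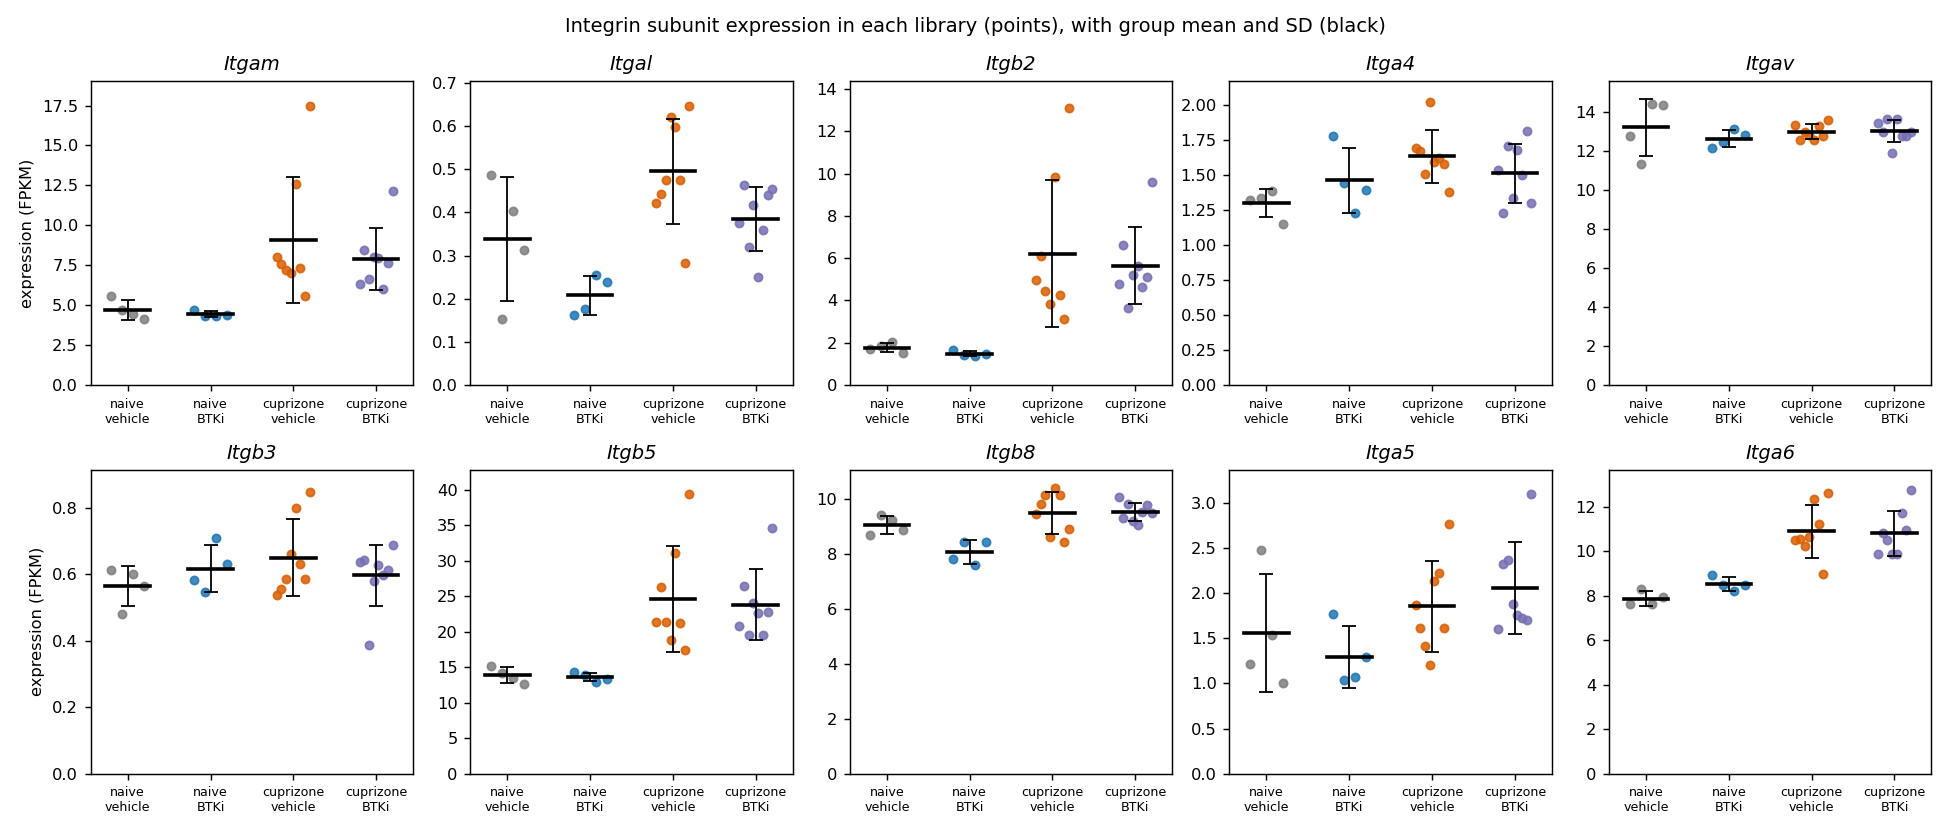
FPKM of each of the 10 integrin subunits (y axis, a separate scale for each gene starting at 0) in the 4 groups (x axis), with a point for each library, a black line at the group mean and bars of 1 SD. Itgb2, Itgb5 and Itga6 have every cuprizone library above every naive library, with 3 cuprizone libraries far above the others for Itgb2, and Itgav stays between 11.4 and 14.4 FPKM in all groups. The share of all genes whose groups separate in this way was not counted.

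Cuprizone was compared with naive tissue first under vehicle, which asks what the model changes in these receptors, and then under BTKi. Under vehicle 4 of the 9 tested members were called, Itgb2, Itgam, Itgb5 and Itga6, and all 4 were higher. Of all genes tested, 15.0% were called in this comparison and 10.2% were called and higher. Under BTKi 5 of 9 were called, the same 4 and Itgb8, again all higher, against 7.87% of all genes called and 6.11% called and higher. The members were chosen with earlier results of these data known, so these counts beside the shares of all genes are a description. The median log2 change of the 9 members was 0.24 under vehicle and 0.32 under BTKi, beside 0.03 and 0.02 over all genes tested. The 2 comparisons share no library, but 1 model gave both their estimate of spread, so their p-values are not independent. Scaling set the balance of all calls, which was 1555 higher and 733 lower under vehicle (1236 and 960 after median ratio scaling, 1205 and 1072 after quantile normalization), and 929 higher and 269 lower under BTKi (767 and 415, and 724 and 395). The called members were higher and called under each of these scalings. Without cuprizone vehicle 1, 4 and 7, a choice made after seeing the data, the count under vehicle was again 4. The log2 change was then 1.71 for Itgb2, 0.99 for Itgam, 0.94 for Itgb5 and 0.50 for Itga6.

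**Figure D2:**
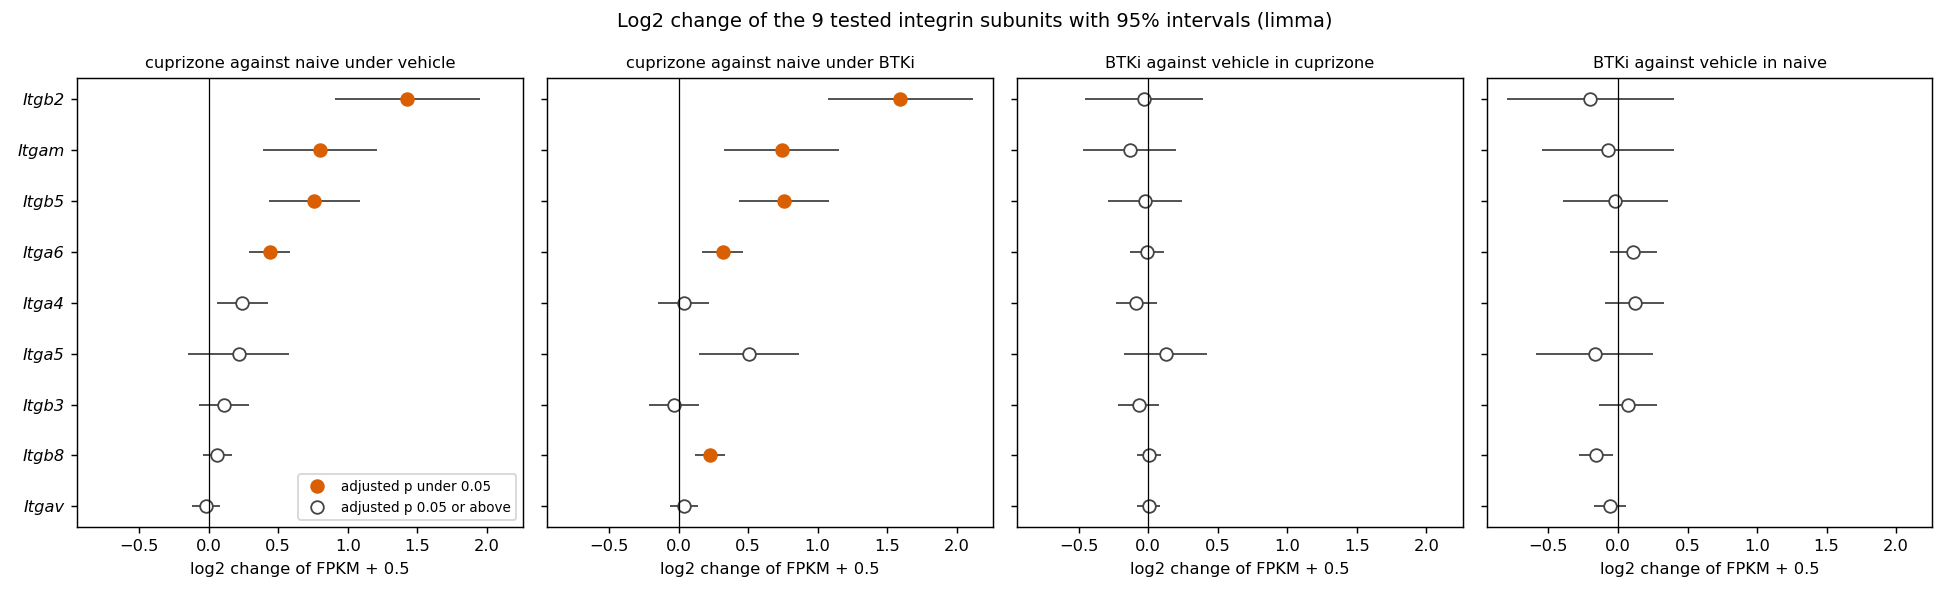
Log2 change of FPKM + 0.5 (x axis) of the 9 tested members (y axis) in 4 comparisons, with 95% intervals from limma, filled where the adjusted p is under 0.05. The intervals of Itgb2, Itgam, Itgb5 and Itga6 lie above 0 in both comparisons of cuprizone with naive tissue, and no member is filled in either comparison of BTKi with vehicle.

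Itgb2, the shared beta chain of the leukocyte integrins (ENSMUSG00000000290.13, GRCm38 chromosome 10, 77530252 to 77565708, plus strand), changed most among the members. It read 1.72, 1.84, 2.02 and 1.50 FPKM in naive vehicle 1 to 4 and 1.64, 1.40, 1.38 and 1.47 FPKM in naive BTKi 1 to 4. Cuprizone vehicle libraries ran from 3.15 through a median of 4.69 to 13.1 FPKM, and cuprizone BTKi libraries from 3.64 through 5.14 to 9.61 FPKM. Every cuprizone library lay above every naive one, and cuprizone vehicle 8, cuprizone vehicle 5 and cuprizone BTKi 8 were the 3 highest. Listed genes outside the members, Fermt3 and Icam1 among them, also separated in both comparisons of cuprizone with naive tissue. The share of all genes that separate was not counted. Such a separation is therefore not shown to be particular to Itgb2, nor to any gene below. Its mean was 1.77 ± 0.220 FPKM (SD, n = 4) in naive vehicle and rose to 6.21 ± 3.47 FPKM (SD, n = 8) in cuprizone vehicle, by 1.43 on the log2 scale (SE 0.25, limma adjusted p = 0.000239). Under BTKi the means were 1.47 ± 0.117 and 5.65 ± 1.81 FPKM, a rise of 1.60 on the log2 scale (SE 0.25, limma adjusted p = 0.000116). In bulk tissue fewer cells of a type and less RNA per cell cannot be told apart, nor can more of either, and this holds for each member below.

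Itgam, the alpha M chain that joins Itgb2 in the complement receptor CR3 (ENSMUSG00000030786.18, chromosome 7, 128062640 to 128118491, plus strand), read 5.57, 4.71, 4.42 and 4.14 FPKM in naive vehicle 1 to 4 and 4.70, 4.32, 4.31 and 4.37 FPKM in naive BTKi 1 to 4. Libraries of cuprizone vehicle ran from 5.55 through 7.44 to 17.5 FPKM, and cuprizone BTKi from 5.99 through 7.78 to 12.2 FPKM. Cuprizone vehicle 7 lay just under naive vehicle 1, so the groups overlapped by this pair under vehicle, and under BTKi they did not overlap. On the log2 scale the change was 0.80 under vehicle (SE 0.20, limma adjusted p = 0.00627) and 0.74 under BTKi (SE 0.20, adjusted p = 0.0182). The call under BTKi ended without naive BTKi 2 (adjusted p = 0.0525), naive BTKi 3 (0.0584) or naive BTKi 4 (0.0514), and with no filter on low values (0.0540). In the annotation 3450 of the 5024 exonic bases of Itgam are shared with the readthrough gene Gm49368 on the same strand, which read 0 to 0.411 FPKM, and how reads in the shared bases were assigned is not known. The level of Itgam and its ratios are uncertain to that extent.

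Itgal, the alpha L chain of LFA-1 on lymphocytes and other leukocytes (ENSMUSG00000030830.18, chromosome 7, 127296260 to 127335138, plus strand), was under the filter and was left out of the main fit. It read 0.486, 0.152, 0.403 and 0.312 FPKM in naive vehicle 1 to 4 and 0.162, 0.177, 0.254 and 0.238 FPKM in naive BTKi 1 to 4. The range in cuprizone vehicle was from 0.283 through 0.475 to 0.646 FPKM and cuprizone BTKi from 0.251 through 0.396 to 0.464 FPKM. The groups overlapped under vehicle and, by a narrow margin, under BTKi. Without the filter the log2 change was 0.25 under vehicle, with an unadjusted limma p of 0.0200 and an adjusted p of 0.166. It was 0.32 under BTKi, with an unadjusted limma p of 0.00456 and an adjusted p of 0.101. These levels stand for about 30 to 131 fragments a library.

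The third alpha partner, Itgax (alpha X, ENSMUSG00000030789.9), is known as the chain of CR4 and as a marker of activated microglia and dendritic cells, and its gene lies next to Itgam, at 128129547 to 128150657 of chromosome 7. It read 0.0326 to 0.124 FPKM in the 8 naive libraries. It ran from 2.33 through 4.42 to 9.82 FPKM in cuprizone vehicle and from 2.85 through 3.65 to 6.29 FPKM in cuprizone BTKi, far from the naive range, with the same 3 libraries highest as for Itgb2. The change on the log2 scale was 3.23 under vehicle (SE 0.22, limma adjusted p = 1.01e-09) and 2.94 under BTKi (SE 0.22, adjusted p = 5.21e-09).

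Microglia markers moved with the beta 2 integrins. Of 12 such markers 8 were higher under vehicle and 8 under BTKi, and they summed to 127 to 157 FPKM in naive vehicle, 140 to 153 in naive BTKi, 182 to 404 in cuprizone vehicle and 202 to 319 in cuprizone BTKi. Among them Tmem119 and P2ry12, which mark resting microglia, had log2 changes under vehicle of 0.09 (limma adjusted p = 0.663) and -0.02 (adjusted p = 0.908). The part of these markers in the changes of Itgb2, Itgam and Itgax was not tested. Markers of other leukocytes were low: neutrophil markers summed to at most 2.17 FPKM in any library, with Ly6g at 0 in all 24 and S100a8 and S100a9 at no more than 1.09 and 0.966 FPKM. B cell markers summed to at most 1.38 FPKM, with Ms4a1 at no more than 0.111 FPKM. Monocyte and border macrophage markers summed to 1.78 to 3.41 FPKM in naive vehicle, 3.41 to 5.37 in cuprizone vehicle, 3.23 to 3.74 in naive BTKi and 3.03 to 4.81 in cuprizone BTKi. The border macrophage markers Mrc1 and Lyve1 reached at most 1.01 and 0.377 FPKM and the monocyte receptor Ccr2 at most 0.198 FPKM. Of the 3 tested, Mrc1 was called and higher under vehicle (log2 change 0.31, limma adjusted p = 0.0401), a call made in 5 of 12 fits that left 1 library out (0.223 where that was naive vehicle 2). None was called under BTKi. The border macrophage marker Ms4a7, under the filter and so not tested, ran from 0.0464 to 0.223 FPKM in naive vehicle, 0.386 to 1.02 in cuprizone vehicle, 0.146 to 0.422 in naive BTKi and 0.246 to 0.759 in cuprizone BTKi. It did not overlap under vehicle and overlapped under BTKi, and the part of these markers in the members' changes was not tested.

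T and NK cell markers summed to 2.22 to 7.28 FPKM in naive vehicle and 1.68 to 3.24 FPKM in cuprizone vehicle, with Cd3e and Cd3d at no more than 0.214 and 0.115 FPKM in any library. Of the 2 tested, Cd4, the co-receptor of helper T cells, was called and lower under vehicle (log2 change -1.05, limma adjusted p = 0.00885), at 1.55 to 6.31 FPKM in naive vehicle, highest in naive vehicle 2, and 0.786 to 1.88 FPKM in cuprizone vehicle. This call ended without naive vehicle 2 (0.0761) and without cuprizone vehicle 1, 4 and 7 (0.0653). Neither tested marker was called under BTKi. Most of the summed level in naive vehicle 2 was Cd4, and that library was also highest for the striatal markers. Cuprizone BTKi 7 was the lowest library for Cd4 (0.444 FPKM) and for the striatal marker Drd2 (1.56 FPKM). The part of striatal tissue in the fall of Cd4 was not tested.

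Itga4, the alpha 4 chain of VLA-4 on lymphocytes and monocytes (ENSMUSG00000027009.18, chromosome 2, 79255426 to 79333123, plus strand), read 1.32, 1.34, 1.39 and 1.15 FPKM in naive vehicle 1 to 4 and 1.78, 1.45, 1.23 and 1.39 FPKM in naive BTKi 1 to 4. Cuprizone vehicle ran from 1.38 through 1.61 to 2.02 FPKM and cuprizone BTKi from 1.23 through 1.52 to 1.81 FPKM. Cuprizone and naive libraries overlapped under vehicle only at the lowest cuprizone library, and under BTKi over most of their range. The log2 change was 0.24 under vehicle (SE 0.09, limma adjusted p = 0.0656) and 0.04 under BTKi (SE 0.09, adjusted p = 0.882). It was called under vehicle when cuprizone vehicle 8 was left out (adjusted p = 0.0446) or when the variance trend was dropped (0.0477). An antisense gene, Cerkl, shares 1124 of the 13978 exonic bases of Itga4 and read 0.475 to 1.92 FPKM, and the sources used here do not say whether counting used the strand.

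Of the alpha V subunit and its 3 partners here, Itgb5 was called in both comparisons, Itgb8 under BTKi, and Itgav and Itgb3 in neither. Itgav (ENSMUSG00000027087.11, chromosome 2, 83724397 to 83806916, plus strand) read 12.8, 11.4, 14.4 and 14.4 FPKM in naive vehicle 1 to 4 and 12.2, 12.5, 13.2 and 12.8 FPKM in naive BTKi 1 to 4. Libraries of cuprizone vehicle ran from 12.6 through 12.9 to 13.6 FPKM and cuprizone BTKi from 11.9 through 13.0 to 13.7 FPKM. All 4 groups overlapped. On the log2 scale the change was -0.02 under vehicle (95% interval -0.12 to 0.08, limma adjusted p = 0.853) and 0.04 under BTKi (95% interval -0.06 to 0.14, adjusted p = 0.725).

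Itgb5, which pairs with Itgav and binds vitronectin and other ligands with the RGD motif (ENSMUSG00000022817.15, chromosome 16, 33829665 to 33949338, plus strand), read 15.2, 14.2, 13.4 and 12.6 FPKM in naive vehicle 1 to 4 and 14.3, 13.9, 12.9 and 13.4 FPKM in naive BTKi 1 to 4. The range in cuprizone vehicle was from 17.4 through 21.3 to 39.4 FPKM and cuprizone BTKi from 19.5 through 22.7 to 34.6 FPKM. No cuprizone library reached down to a naive one, and the 3 highest were again cuprizone vehicle 8, cuprizone BTKi 8 and cuprizone vehicle 5. From 13.9 ± 1.12 FPKM (SD, n = 4) in naive vehicle the mean rose to 24.6 ± 7.39 FPKM (SD, n = 8) in cuprizone vehicle, by 0.76 on the log2 scale (SE 0.16, limma adjusted p = 0.00134). Under BTKi the log2 change was likewise 0.76 (SE 0.16, adjusted p = 0.00226).

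Itgb8, which with Itgav binds latent TGF-beta on glia (ENSMUSG00000025321.14, chromosome 12, 119158022 to 119238802, minus strand), read 8.68, 9.41, 9.23 and 8.86 FPKM in naive vehicle 1 to 4 and 7.83, 8.43, 7.58 and 8.42 FPKM in naive BTKi 1 to 4. Cuprizone vehicle ran from 8.43 through 9.62 to 10.4 FPKM and cuprizone BTKi from 9.03 through 9.50 to 10.1 FPKM. The 4 naive BTKi libraries were below all naive vehicle libraries and below all cuprizone BTKi libraries, while cuprizone and naive libraries overlapped under vehicle. Other listed genes, Icam5 among them, also did not overlap between the naive groups. The share of all genes that separate in this way was not counted, so the separation is not shown to be particular to Itgb8. The change on the log2 scale was 0.06 under vehicle (SE 0.05, limma adjusted p = 0.474) and 0.23 under BTKi (SE 0.05, adjusted p = 0.00448). The difference between those 2 changes was 0.17 (SE 0.07), with an unadjusted limma p of 0.0309 and an adjusted p of 0.472, so the changes are not shown to differ.

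Itgb3, the beta 3 chain known from platelets and endothelium (ENSMUSG00000020689.4, chromosome 11, 104608000 to 104670476, plus strand), read 0.613, 0.480, 0.602 and 0.564 FPKM in naive vehicle 1 to 4 and 0.582, 0.547, 0.709 and 0.633 FPKM in naive BTKi 1 to 4. Libraries of cuprizone vehicle ran from 0.537 through 0.609 to 0.849 FPKM and cuprizone BTKi from 0.386 through 0.620 to 0.687 FPKM. All groups overlapped. The log2 change was 0.11 under vehicle (limma adjusted p = 0.457) and -0.03 under BTKi (adjusted p = 0.904), at a depth of about 69 to 155 fragments a library. Platelet markers summed to 0.390 to 0.863 FPKM over all libraries, with Gp6 at 0 in every naive library, Gp1ba at 0 in every naive vehicle library and Ppbp at 0 in every naive BTKi library.

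Itga5, the alpha chain of the main fibronectin receptor (ENSMUSG00000000555.8, chromosome 15, 103344286 to 103366763, minus strand), read 1.22, 2.48, 1.54 and 1.00 FPKM in naive vehicle 1 to 4 and 1.77, 1.04, 1.07 and 1.29 FPKM in naive BTKi 1 to 4. The range in cuprizone vehicle was from 1.20 through 1.74 to 2.76 FPKM and cuprizone BTKi from 1.60 through 1.82 to 3.09 FPKM. The groups overlapped in both comparisons. On the log2 scale the change was 0.21 under vehicle (SE 0.18, limma adjusted p = 0.462) and 0.51 under BTKi (SE 0.18, adjusted p = 0.0817). Under BTKi the gene was called without naive BTKi 1 (adjusted p = 0.0474) and in a fit of the 2 compared groups alone (0.0387).

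Itga6, the laminin-binding alpha 6 chain found on endothelium and glia (ENSMUSG00000027111.15, chromosome 2, 71745616 to 71858416, plus strand), read 7.61, 8.29, 7.62 and 7.95 FPKM in naive vehicle 1 to 4 and 8.93, 8.49, 8.20 and 8.50 FPKM in naive BTKi 1 to 4. Cuprizone vehicle ran from 8.96 through 10.6 to 12.6 FPKM and cuprizone BTKi from 9.85 through 10.7 to 12.8 FPKM. Every cuprizone library lay above every naive library. Means were 7.87 ± 0.323 FPKM (SD, n = 4) in naive vehicle and 10.9 ± 1.18 FPKM (SD, n = 8) in cuprizone vehicle, a rise of 0.44 on the log2 scale (SE 0.07, limma adjusted p = 9.10e-05). Under BTKi they were 8.53 ± 0.303 and 10.8 ± 1.03 FPKM, a rise of 0.32 on the log2 scale (SE 0.07, limma adjusted p = 0.00420). Endothelial markers were called in 0 of 10 in either comparison (limma, log2 change of Pecam1 0.04 and of Cldn5 -0.11 under vehicle), and summed to 107 to 117 FPKM in naive vehicle and 108 to 129 FPKM in cuprizone vehicle. Of 8 astrocyte markers 4 were higher and 1 lower under vehicle, and 4 higher and 0 lower under BTKi, and they summed to 691 to 722 FPKM in naive vehicle and 826 to 1010 FPKM in cuprizone vehicle. Gfap among them rose by 1.85 on the log2 scale under vehicle (limma adjusted p = 1.01e-09). It read 57.5 to 73.0 FPKM in naive vehicle and 181 to 337 FPKM in cuprizone vehicle, and so weighs heavily on the rise of that sum. The lower marker was Gja1 (log2 change -0.23, limma adjusted p = 0.029), a call that ended without naive vehicle 2 or 4 or cuprizone vehicle 8. Within groups Itga6 also followed Itgb2 (Pearson's r of 0.739) and Itgam (0.716) over the 24 libraries, as a description, and the part of astrocytes or microglia in its rise was not tested.

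Of the beta partners of Itga6, Itgb4 was called in both comparisons and Itgb1 in neither. Itgb1, which also pairs with Itga4 and Itga5, had a mean of 14.5 ± 0.490 FPKM in naive vehicle and 15.9 ± 1.75 FPKM in cuprizone vehicle (log2 change 0.12, SE 0.06, limma adjusted p = 0.194), and 0.09 under BTKi (adjusted p = 0.423). Without cuprizone vehicle 1, 4 and 7 it was called under vehicle, with a log2 change of 0.19 (adjusted p = 0.00784). Itgb4, the beta 4 chain that pairs with Itga6 alone, read 3.96, 7.05, 5.37 and 4.80 FPKM in naive vehicle 1 to 4 and 4.18, 4.69, 3.45 and 3.67 FPKM in naive BTKi 1 to 4. It ran from 1.04 through 1.76 to 2.16 FPKM in cuprizone vehicle and from 1.10 through 1.76 to 2.65 FPKM in cuprizone BTKi, below all naive libraries. Itgb4 fell, with a log2 change of -1.41 under vehicle (SE 0.17, limma adjusted p = 1.54e-06) and -1.03 under BTKi (SE 0.17, adjusted p = 0.000172). The 10 oligodendrocyte markers fell beside it, from a sum of 3496 to 4908 FPKM in naive vehicle to 1108 to 1825 FPKM in cuprizone vehicle, and their part in the fall of Itgb4 was not tested.

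Ratios of FPKM within a library set subunits side by side, some of which pair with each other and some of which share a partner or a cell type. For 8 ratios in 4 comparisons, two-sided exact permutation tests were run with adjustment over the 8 ratios of a comparison, and 11 of the 32 tests had an adjusted p under 0.05, all in the comparisons of cuprizone with naive tissue. With 4 against 8 libraries the smallest p is 0.00202, which the first 3 ratios below reached.

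Within the beta 2 integrins, the ratio of Itgam to Itgb2 read 3.24, 2.57, 2.19 and 2.77 in naive vehicle 1 to 4 and 1.25 to 1.84 in cuprizone vehicle, so the beta chain gained on the alpha chain. Its mean went from 2.69 ± 0.436 to 1.55 ± 0.232 under vehicle and from 3.01 ± 0.117 to 1.43 ± 0.190 under BTKi (exact permutation tests, adjusted p = 0.00539 in each). The ratio of Itgax to Itgam went from 0.0161 ± 0.00644 to 0.580 ± 0.116 under vehicle and from 0.0173 ± 0.00777 to 0.511 ± 0.0555 under BTKi (exact permutation, adjusted p = 0.00539 in each). So Itgax, barely measured beside Itgam in naive tissue, stood at 0.420 to 0.817 of the level of Itgam in cuprizone vehicle libraries. Itga4 is not a partner of Itgb2, and their ratio sets leukocyte subunits of different receptors side by side. It went from 0.739 ± 0.0391 to 0.329 ± 0.148 under vehicle and from 0.991 ± 0.0876 to 0.294 ± 0.103 under BTKi (exact permutation, adjusted p = 0.00539 in each). The ratio of Itgal to Itgam was not called in either comparison (exact permutation, adjusted p = 0.335 and 0.665). Without naive vehicle 2 it was called and lower under vehicle, by a difference of -0.0263 (exact permutation, adjusted p = 0.0485).

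Within the alpha V group, the ratio of Itgb5 to Itgav read 1.19, 1.25, 0.932 and 0.877 in naive vehicle 1 to 4 and 1.36 to 2.89 in cuprizone vehicle. The mean went from 1.06 ± 0.185 to 1.89 ± 0.544 under vehicle (exact permutation, adjusted p = 0.0259) and from 1.08 ± 0.0844 to 1.83 ± 0.403 under BTKi (adjusted p = 0.00970). The ratio of Itgb5 to Itgb8 went from 1.54 ± 0.150 to 2.60 ± 0.807 under vehicle (exact permutation, adjusted p = 0.0259) and from 1.69 ± 0.102 to 2.51 ± 0.553 under BTKi (adjusted p = 0.0189). Under vehicle the first call ended without naive vehicle 1 (adjusted p = 0.0606), 3 (0.0727) or 4 (0.0848) or cuprizone vehicle 2 (0.0533), and the second without naive vehicle 1 (0.0776), 2 (0.0727), 3 (0.0873) or 4 (0.0970) or cuprizone vehicle 2 (0.0533). Itgb8 to Itgav went from 0.638 ± 0.0436 to 0.731 ± 0.0353 under BTKi (exact permutation, adjusted p = 0.00808) and from 0.691 ± 0.0954 to 0.729 ± 0.0654 under vehicle (adjusted p = 0.414), and the difference between these was not tested. Its groups overlapped in both comparisons, under BTKi with cuprizone BTKi 5 (0.660) below naive BTKi 2 (0.676). The ratio of Itgb3 to Itgav was not called (exact permutation, adjusted p = 0.178 and 0.665). Without cuprizone vehicle 1, 4 and 7 the number of called ratios was again 11.

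**Figure D3:**
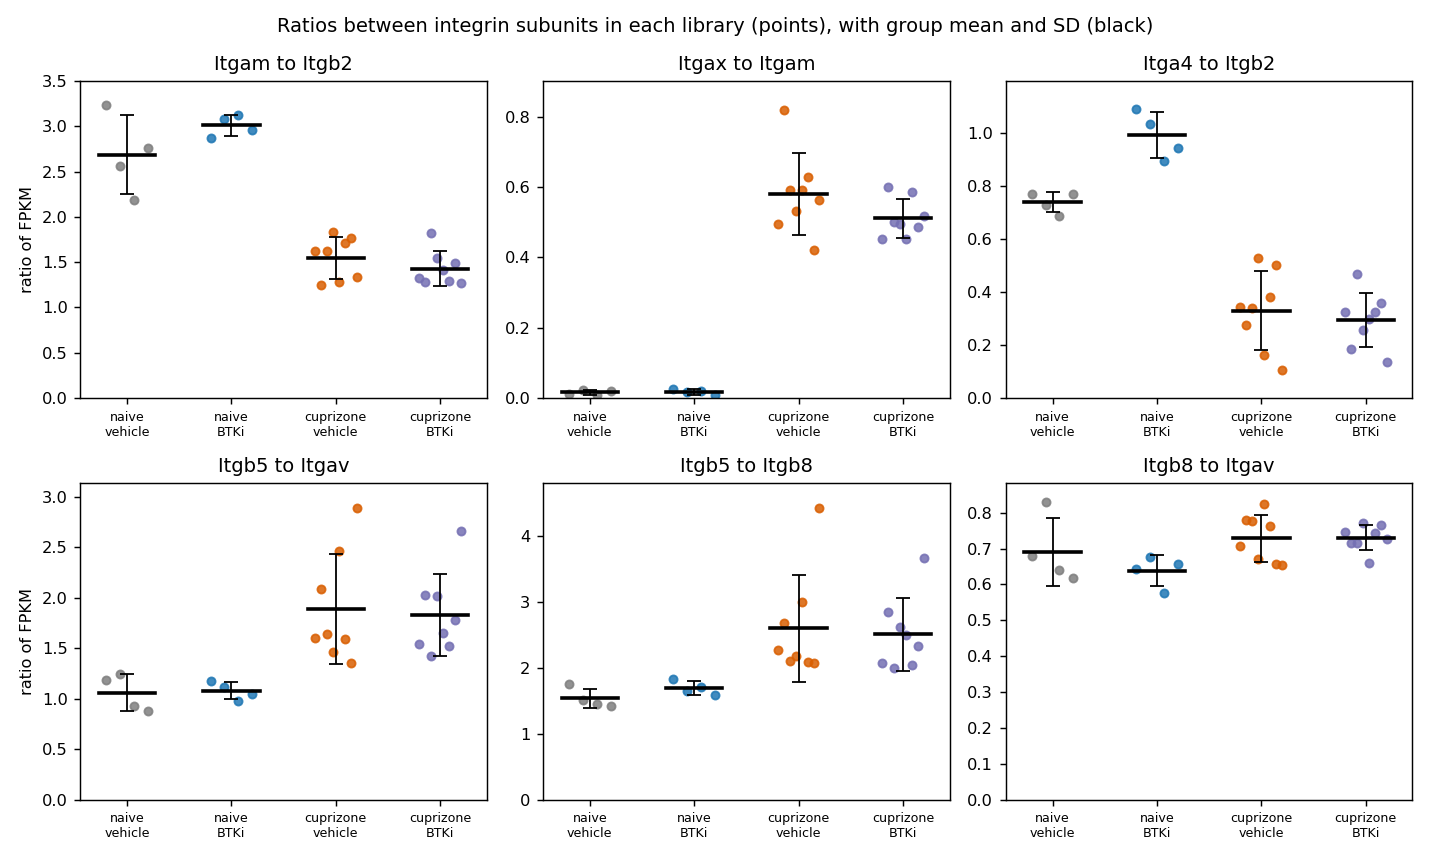
Ratio of FPKM between 2 integrin subunits (y axis, starting at 0) in each library of the 4 groups (x axis), with black lines at the group mean and bars of 1 SD. Every cuprizone library lies under every naive one for Itgam to Itgb2 and Itga4 to Itgb2 and above for Itgax to Itgam, Itgb5 to Itgav and Itgb5 to Itgb8, while Itgb8 to Itgav overlaps under vehicle and under BTKi.

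The effect of the inhibitor asks whether these receptors differ between BTKi and vehicle, and these comparisons share libraries with the earlier ones. In cuprizone tissue limma called 0 of the 9 tested members, with 0 at an unadjusted p under 0.05, while 0.177% of all genes were called. Itgam had a mean of 9.09 ± 3.95 FPKM (SD, n = 8) under vehicle and 7.90 ± 1.94 FPKM (SD, n = 8) under BTKi, a log2 difference of -0.13 (95% interval -0.47 to 0.20, limma adjusted p = 0.867). The log2 difference of Itgb2 was -0.03 (95% interval -0.46 to 0.39), of Itgb5 -0.02 (95% interval -0.29 to 0.24) and of Itga6 -0.01 (95% interval -0.13 to 0.11). The intervals of Itgam, Itgb2, Itgb5 and Itga6 leave out differences as large as the changes with cuprizone, and do not show that the groups are alike. Itgax had a log2 difference of -0.28 (95% interval -0.66 to 0.10, limma adjusted p = 0.698), from 5.29 ± 2.41 to 4.04 ± 1.11 FPKM.

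In naive tissue 0 of 9 members were called, beside 0.217% of all genes, and 1 had an unadjusted p under 0.05 in limma. That 1 was Itgb8, whose mean was 9.05 ± 0.334 FPKM (SD, n = 4) under vehicle and 8.06 ± 0.428 FPKM (SD, n = 4) under BTKi. Its log2 difference was -0.16 (SE 0.06), with an unadjusted limma p of 0.0136 and an adjusted p of 0.259. The difference of the BTKi effect between cuprizone and naive tissue was called for 0 of 9 members, with 1 at an unadjusted p under 0.05 in limma, again Itgb8, and for 0.125% of all genes. None of the 8 ratios was called for BTKi in either tissue (exact permutation, smallest adjusted p = 0.646 in cuprizone and 0.229 in naive). In naive tissue 4 against 4 libraries cannot give a p under 0.0286, so no ratio could pass there after adjustment unless several reached that p. The ratio of Itga4 to Itgb2 did reach it alone, at 0.687 to 0.770 under vehicle and 0.895 to 1.09 under BTKi.

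Other genes whose levels followed those of the members within groups were ranked by Pearson's r of log2(FPKM + 0.5) after each group's mean was taken off, over the 24 libraries, as a description. Among the nearest to Itgam were Laptm5 (r = 0.969), Ly86 (0.966) and Csf1r (0.963). Among the nearest to Itgb2 were C1qa (0.971), Itgb5 (0.965) and Tyrobp (0.962), and nearest to Itgb5 were C1qa (0.976), Tyrobp (0.973), Ctsd (0.965) and Grn (0.965). Spearman's rho of these pairs was 0.885 to 0.936. Itgav ranked with other genes, Fam3c (0.866), C730002L08Rik (0.845), Nlk (0.836) and Fgfr1op2 (0.834), where rho was lower, at 0.634 to 0.760, and so did Itgb8, with St6galnac2 (0.772), Phf21a (0.763), Fam192a (0.753) and Palmd (0.749).

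The rest of the integrin system was read from lists. Of all genes tested, 15.0% were called and 10.2% called and higher under vehicle, and 7.87% and 6.11% under BTKi. These shares stand beside each list below. Of 16 other integrin subunits 10 were tested, and in each comparison of cuprizone with naive tissue 1 was higher, Itgax, and 1 was lower, Itgb4. The 1 of 10 called and higher is near those shares, and is not a result about this list. Without cuprizone vehicle 1, 4 and 7, 2 were higher under vehicle, the second being Itgb1. Of 24 genes that activate integrins or tie them to the cytoskeleton 23 were tested, with 5 higher and 0 lower under vehicle and 6 higher and 0 lower under BTKi. The count under vehicle was 6 higher and 1 lower without cuprizone vehicle 1, 4 and 7, the lower being Fermt2, the broadly expressed kindlin (log2 change -0.17, limma adjusted p = 0.0362, against -0.12 and 0.134 with all libraries). Fermt3, the kindlin of blood cells that switches beta 2 integrins on, rose from 1.19 ± 0.229 to 2.84 ± 0.962 FPKM under vehicle (log2 change 0.95, limma adjusted p = 0.000208), and by 0.83 under BTKi (adjusted p = 0.00130). Apbb1ip, which links Rap1 to talin, rose by 0.81 under vehicle (adjusted p = 0.00132), and Syk, a kinase downstream of integrins and Fc receptors, by 0.51 (adjusted p = 0.00532). Parvg, the leukocyte parvin, rose by 0.65 under vehicle (adjusted p = 0.00450) and had a log2 change of 0.37 under BTKi (adjusted p = 0.183). Under BTKi the count was 2 without naive BTKi 3, since the calls of Apbb1ip (0.64), Syk (0.44), Tln1 (talin, 0.22) and of Vcl (vinculin, 0.21, named after its value was seen) all ended without it. The calls of Syk and Tln1 also ended without naive BTKi 1 or 4, with no filter, after quantile normalization and with the replicate block, and that of Tln1 without cuprizone BTKi 8 and after median ratio scaling.

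Of 13 ligands of the leukocyte integrins 9 were tested, and under vehicle 3 were higher and 1 was lower. C3, whose fragment iC3b is bound by the receptor of Itgam and Itgb2, rose from 0.441 ± 0.188 to 1.98 ± 0.881 FPKM (log2 change 1.33, limma adjusted p = 0.000668). Icam1, a ligand of LFA-1 and Mac-1, rose by 0.97 (adjusted p = 9.27e-05), and Icam5, its neuronal relative, by 0.25 (adjusted p = 0.00509). Jam3, a junction protein that binds Mac-1, fell by 0.41 (adjusted p = 0.000329). Under BTKi 3 were higher and 0 lower: C3 by 1.21, Icam1 by 0.92 and the LFA-1 ligand F11r by 0.60 (limma adjusted p = 0.00248). Fgb, a fibrinogen chain, was at 0 in every library of 3 groups. Without cuprizone vehicle 1, 4 and 7 the count under vehicle was 5 higher and 1 lower.

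Of 17 ligands of RGD-binding and laminin-binding integrins 16 were tested, with 3 higher and 1 lower under vehicle and 1 higher and 0 lower under BTKi. The 1 of 16 under BTKi is a share near the 6.11% of all genes called and higher there, and is not a result about this list. Spp1, which encodes osteopontin, a ligand of alpha V and alpha 4 integrins, ran from 3.66 to 6.84 FPKM in naive vehicle and from 10.1 to 89.6 FPKM in cuprizone vehicle (log2 change 2.18, limma adjusted p = 0.00103), and rose by 1.89 under BTKi (adjusted p = 0.00636). Fn1, fibronectin, had a log2 change of 0.51 under vehicle (adjusted p = 0.0285), Lama4, a vascular laminin chain, of 0.32 (adjusted p = 0.0331) and Edil3, an RGD protein, of -0.21 (adjusted p = 0.0473). These 3 calls each ended when 1 library was left out. Without naive vehicle 2 the adjusted p was 0.145 for Fn1, 0.199 for Lama4 and 0.266 for Edil3, and without the filter on low values Spp1 alone was called. Each of the 3 also ended without naive vehicle 4, that of Fn1 also without naive vehicle 3 or cuprizone vehicle 5, that of Lama4 without cuprizone vehicle 1, and Edil3 was called in 3 of 12 fits without 1 library. Without cuprizone vehicle 1, 4 and 7 the count under vehicle was 4 higher and 0 lower.

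Of 11 genes of the latent TGF-beta system, on which Itgav with Itgb8 acts, 10 were tested. Under vehicle 3 were higher and 1 lower, and under BTKi 4 were higher and 0 lower. The receptor Tgfbr1 rose from 4.32 ± 0.239 to 8.34 ± 2.04 FPKM under vehicle (log2 change 0.85, limma adjusted p = 7.11e-06), the cytokine Tgfb1 by 0.81 (adjusted p = 0.00217) and the receptor Tgfbr2 by 0.44 (adjusted p = 0.00836). Under BTKi the log2 changes were 0.66, 0.81 and 0.45, all 3 called. Lrrc32, which holds latent TGF-beta on the cell surface, fell by 0.25 under vehicle (adjusted p = 0.0191), a call that ended without naive vehicle 3 (0.0710) and with the replicate block (0.0585). Nrros, the anchor of latent TGF-beta on microglia, had a log2 change of 0.39 under BTKi (adjusted p = 0.0381), and was called in 5 of 12 fits without 1 library and neither without the filter nor after quantile normalization nor with the replicate block. None of the genes of these 5 lists was called for BTKi against vehicle in cuprizone or in naive tissue with limma.

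**Figure D4:**
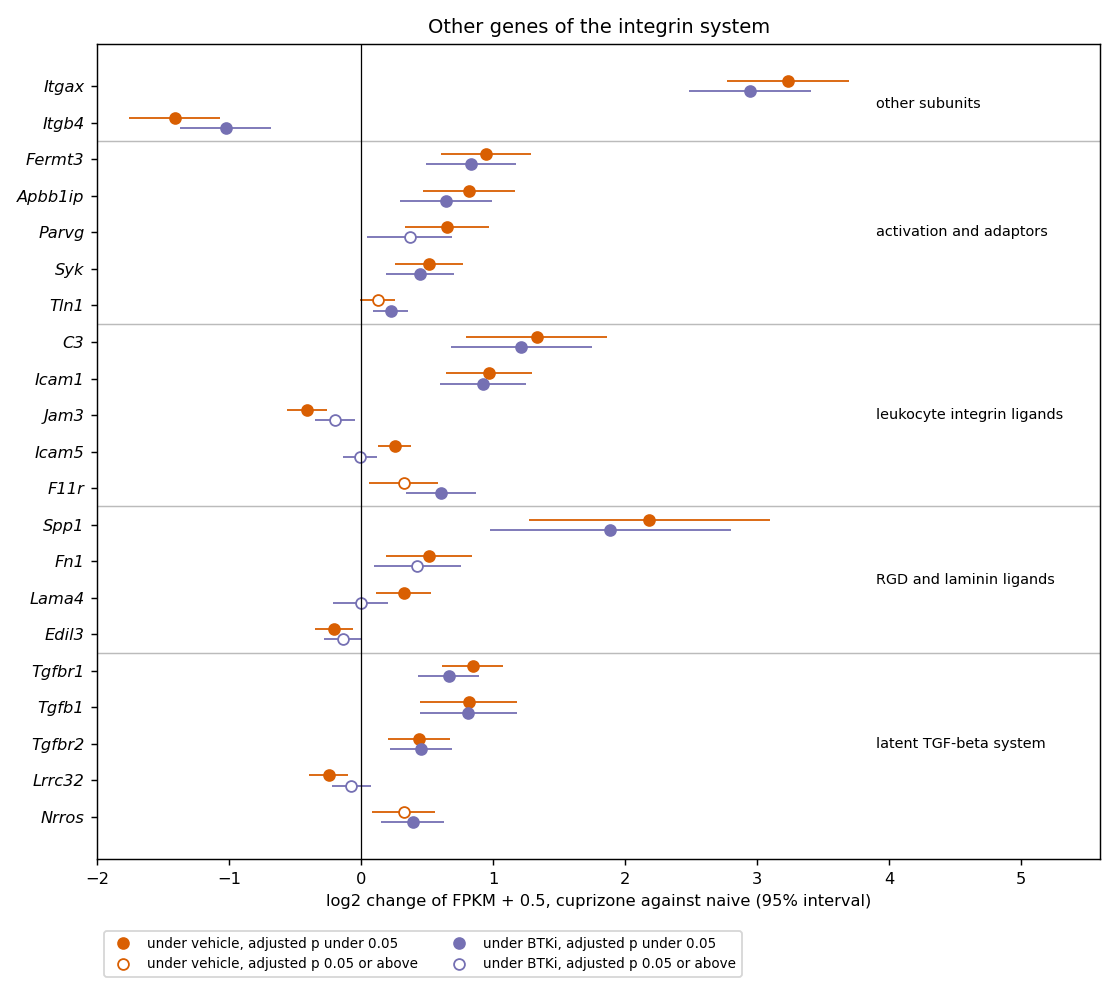
Log2 change of FPKM + 0.5 between cuprizone and naive tissue (x axis), with 95% intervals, for named genes of 5 lists around the integrin members (y axis), under vehicle (orange) and under BTKi (purple), filled where the adjusted p is under 0.05. Itgax (3.23 under vehicle) and Spp1 (2.18) lie farthest to the right, and Itgb4 (-1.41) farthest to the left.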

How the data were processed

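RNA was extracted with Qiagen RNeasy Micro kits, and libraries were made with a stranded TruSeq mRNA kit, per the labels' protocols. The authors deposited 1 table of FPKM values, named so by the table, for 54446 versioned Ensembl IDs. The sources used here do not give the aligner, counter, build or annotation. Symbols were matched for 54409 IDs, and coordinates are those of GENCODE M21 (GRCm38), which holds 53229 of the IDs with their version.

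The deposited FPKM values were taken to log2(FPKM + 0.5), and genes with a mean of at least 0.5 FPKM were fitted with limma 3.58.1 in R 4.3.3, all 4 groups in 1 model with a variance trend, calling genes at a Benjamini-Hochberg adjusted p under 0.05 per comparison. Ratios were compared by exact permutation over 495 (4 against 8), 12870 (8 against 8) or 70 (4 against 4) splits. Python 3.11.15, pandas 2.3.3, numpy 2.4.6, scipy 1.17.1 and matplotlib 3.10.9 were used. No count test was run, since FPKM values are not counts. The scripts were tested on simulated data. Depth was read from the spacing of 3439 low genes' values. Fragments behind a low gene are an estimate from annotated exon length.

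The 68 pairs of replicates within groups differed by a log2 spread of 0.123 to 0.222, so no library appeared to be deposited again within its group. Pairs across groups were not compared in this way. Members and lists were chosen with earlier results of these data known. Besides the 10 members, Itgb1 and Itgax, the text names from each list of the integrin system the 4 called genes with the largest log2 change under vehicle and up to 4 called elsewhere, from the marker lists described the first 2 genes and any at 0, and the 4 genes most like 5 of the members, except that some genes the rule selects are not reported here. Ccr2, Ms4a7, Cd4, Gfap, Gja1, Fermt2, Vcl and 4 of the striatal markers were named after their values were seen. The marker lists without a value in the report are given here by their calls, under vehicle and under BTKi. Oligodendrocyte precursor markers had 2 lower under vehicle and 1 higher under BTKi. Mural markers had 1 higher in each, and fibroblast, ependyma and red blood cell markers had 0 in each. Alternatives were pseudocounts of 0.1 and 1, no filter, median ratio and quantile scaling, the compared groups alone, no trend, a replicate block, each library left out, log2 ratios, and, added after seeing the data, leaving out 3 libraries poor in choroid plexus markers.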

Additional observations from a re-analysis of the deposited data

Results flagged for a closer look

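For each of the 10 members and 8 ratios, the 4 groups were checked for a library whose gap to its nearest neighbour took an unusually large share of the group's range. Of 72 groups, 6 had such a library, and chance gives about 1 in 20. Itgam was set apart in naive BTKi 1, at 4.70 FPKM against 4.31 to 4.37 in the other 3, and in cuprizone BTKi 8, at 12.2 FPKM against 5.99 to 8.46 in the other 7. Itgb5 stood apart in the same cuprizone BTKi 8, at 34.6 FPKM against 19.5 to 26.4. The ratio of Itgb5 to Itgb8 stood apart in cuprizone vehicle 8, at 4.42 against 2.06 to 2.99. Itgb3 stood apart in cuprizone BTKi 3 by a low value, 0.386 FPKM against 0.580 to 0.687, and with it the ratio of Itgb3 to Itgav, at 0.0283 against 0.0458 to 0.0528.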

How the results depend on the processing

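Under vehicle the count of called members was 4 in the 9 settings other than those that leave out a single library, except 5 without the variance trend, and 4 to 5 when 1 library was left out. Under BTKi it was 5, except 4 without the filter and 6 with the compared groups alone, and 4 to 6 when 1 library was left out. For BTKi against vehicle, and for the difference of its effects, it was 0 in every fit run. Itgb2, Itgb5 and Itga6 were called in both comparisons of cuprizone with naive tissue in all fits run. The fit with a replicate block called 4 members under vehicle, 5 under BTKi and 0 elsewhere. Same-numbered libraries had correlations of -0.27 to 0.32, not all above 0.1, so the numbers were not taken to pair libraries, which the labels do not settle. The number of called ratios was 11, and 12 on the log2 scale and 9 to 11 with 1 library left out. The ratio of Itgal to Itgam under BTKi, 0.00295 higher in cuprizone and not called, changed sign on the log2 scale of FPKM + 0.5 (-0.42, exact permutation, adjusted p = 0.0208), where the pseudocount outweighs Itgal itself, and without naive BTKi 1 (-0.00129, not called). Of 1070 alternative fits of 53 values that were called in no fit, 73 had another sign. About 30 to 131 fragments a library stand behind Itgal and 69 to 155 behind Itgb3.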
